A study of Arabidopsis thaliana with 4 samples.

Results

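The chloroplast genome of Arabidopsis thaliana encodes 4 subunits of a bacterial-type RNA polymerase, and their transcripts are described here in seedlings kept with or without aluminium. The genes are rpoA, rpoB, rpoC1 and rpoC2, taken by symbol from the ATH1 probe sets that the probe table pairs with exactly 1 gene. All 4 were found, each with 1 probe set, among 69 plastid-encoded genes with a probe set of their own. The series holds 13286 such genes from all genomes and 22746 plant probe sets in all. In the deposited study, seedlings moved from agar plates spent 16 h submerged in diluted Murashige and Skoog solution containing sucrose, to which aluminium had been added at 50 µM in the treated group. The controls are taken to be mock-treated from their titles and from the extraction text, since the treatment text of the labels is the same, with aluminium, for all 4 samples. There were 2 arrays of aluminium-treated and 2 of control seedlings, which the labels call biological replicates, and 100 seedlings were pooled for each array. Accession, genotype and age are not given in the sources used here.

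Chloroplasts use a pair of transcription systems. The plastid-encoded polymerase has a core of the type found in bacteria. Its alpha subunit, from rpoA, starts the assembly of the core. The beta subunit, from rpoB, and the beta′ and beta″ subunits, from rpoC1 and rpoC2, correspond to the bacterial beta and to the split parts of the bacterial beta′ and form the catalytic body. Sigma factors encoded in the nucleus direct this core to promoters, above all those of photosynthesis genes, and a set of nucleus-encoded associated proteins binds to it in the chloroplast. Phage-type polymerases encoded in the nucleus form the other system, and they transcribe the rpoB operon, in which rpoB, rpoC1 and rpoC2 follow each other. The gene rpoA lies elsewhere, in a cluster of ribosomal protein genes.

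All 4 polymerase genes read lower on both aluminium arrays than on both control arrays. The mean differences on the log2(intensity + 16) scale were −1.56 for rpoA, −3.40 for rpoB, −1.85 for rpoC1 and −1.36 for rpoC2, so that the control level was 2.95, 10.6, 3.60 and 2.56 times the aluminium level. None passed limma over all plant probe sets (adjusted p = 0.966 for each, n = 2 arrays per group), and limma called 0 of the 22746 plant probe sets, or 0%. Groups without overlap and with the lower side in aluminium made up 16.2% of all plant probe sets, and 9.93% were in addition at least 2-fold lower, a rule that all 4 polymerase genes met. The median difference over the 4 genes was −1.70, against 0.01 over all plant probe sets and −1.65 over the other 65 plastid-encoded genes. Without control replicate 1 these medians were −1.14 for the polymerase genes and −0.88 for the other plastid genes. Genes below background on both aluminium arrays were also set to a bound, the lowest reading above background. The medians of the polymerase and the other plastid genes were then both −1.52. This bound applied to 1 polymerase gene and 9 of the other 65. It is not firm for petN and ndhA among the 9, where only 1 control array was above background. It could not be given for 4 more of the 65, which were left out. The rpoC1 and rpoC2 readings below background, on aluminium replicate 1 only, were kept as measured.

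The arrays themselves differed in ways that bear on these values. The reading that a probe set had to exceed to count as above background, the 95th percentile of 27 bacterial control probe sets, was 422 to 586 over the arrays, while the median plant probe set read 327 to 351, so the level is a strict one. Complementary DNA was primed with poly dT, per the labels, and most chloroplast transcripts carry no stable poly(A) tail, so the signal of these genes depends on how often they were primed. The 25S ribosomal RNA, which has no such tail either, read 3511 and 533 on the aluminium arrays 1 and 2, and 1362 and 416 on the control arrays 1 and 2. Transcript shortening, read from GAPDH as 3′ over 5′ signal, was 3.52 for aluminium replicate 1 and 1.44 to 1.71 for the others. Neither measure separated the treatments. The 25S reading was higher on both arrays numbered 1 than on both numbered 2. The part of these measures in the results was not tested.

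The alpha subunit gene rpoA (ArthCp055) had an intensity of 2023 on aluminium replicate 1 and 1856 on aluminium replicate 2. In the controls rpoA read 8908 on replicate 1 and 3704 on replicate 2. The aluminium arrays lay close together, the controls were 2.40-fold apart, and all 4 values exceeded the background level of their array. The mean log2 level of rpoA was 10.93 ± 0.09 on the aluminium arrays and 12.49 ± 0.89 on the control arrays (SD, n = 2 each). The difference of −1.56 had a standard error of 0.76 and a 95% interval from −3.42 to 0.30, which includes 0. The distance between the control arrays, 1.26, was larger than that between the replicate 2 arrays of the treatments, −0.99.

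The beta subunit gene rpoB (ArthCp014) read 29.9 and 421 on aluminium replicates 1 and 2, against 1715 and 1280 on control replicates 1 and 2. The aluminium arrays of rpoB were 14.1-fold apart and both lay below the background level of their array, while both controls lay above it and were 1.34-fold apart. The log2 level was 7.15 ± 2.30 on the aluminium arrays and 10.55 ± 0.30 on the control arrays (SD, n = 2 each). The measured difference of −3.40 had a standard error of 1.16 and an interval from −6.27 to −0.54. Because the aluminium values are under the background level, the fold is better read as a bound. With the aluminium arrays set to the lowest reading above background, rpoB was at least 2.81-fold lower with aluminium. Without aluminium replicate 1, the measured difference was −1.78, and without aluminium replicate 2 it was −5.03. Before adjustment rpoB was the 1 of the 4 genes under 0.05 in the limma model fitted across all genes, where 4.77% of all plant probe sets were past that value, 2.41% with the lower side in aluminium.

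The beta′ subunit gene rpoC1 (ArthCp013) read 251 and 724 on aluminium replicates 1 and 2, and 2266 and 1106 on control replicates 1 and 2. The controls of rpoC1 lay above both aluminium values, and the reading on aluminium replicate 1 was below the background level. Its log2 level was 8.80 ± 1.04 on the aluminium arrays and 10.64 ± 0.72 on the control arrays (SD, n = 2 each). The difference of −1.85 had a standard error of 0.84 and an interval from −3.92 to 0.23. It shrank to −1.11 without aluminium replicate 1.

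The beta″ subunit gene rpoC2 (ArthCp012) read 384 and 530 on aluminium replicates 1 and 2, and 1590 and 879 on control replicates 1 and 2. As for rpoC1, only the reading on aluminium replicate 1 was below the background level. The log2 level of rpoC2 was 8.87 ± 0.32 on the aluminium arrays and 10.23 ± 0.60 on the control arrays (SD, n = 2 each). The difference of −1.36 had a standard error of 0.72 and an interval from −3.12 to 0.41. Without control replicate 1 it was −0.94, and that of rpoA −0.93.

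**Figure D1:**
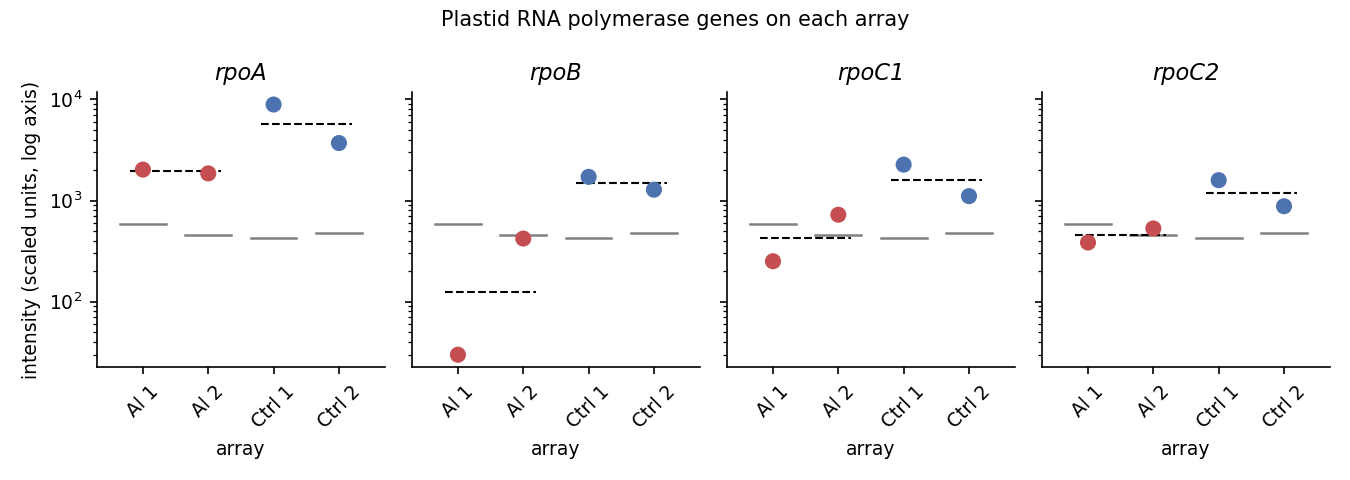
Intensity (log axis) of each plastid polymerase gene on the 2 aluminium arrays (red) and the 2 control arrays (blue). Grey bars are the background level of each array and dashed lines the group means taken on the log2 scale. Both aluminium points lie below both control points in every panel, and rpoB reads 29.9 on aluminium replicate 1.

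The size of the difference varied with the array pair. Between the arrays numbered 1, the differences were −2.13 for rpoA, −5.24 for rpoB, −3.10 for rpoC1 and −2.00 for rpoC2. Between the arrays numbered 2 they were −0.99, −1.57, −0.60 and −0.71 in the same order. All 8 were negative, as they must be where both aluminium arrays read below both controls. The difference between the arrays numbered 1 was the larger in size in each gene. Every gene was brightest on control replicate 1.

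**Figure D2:**
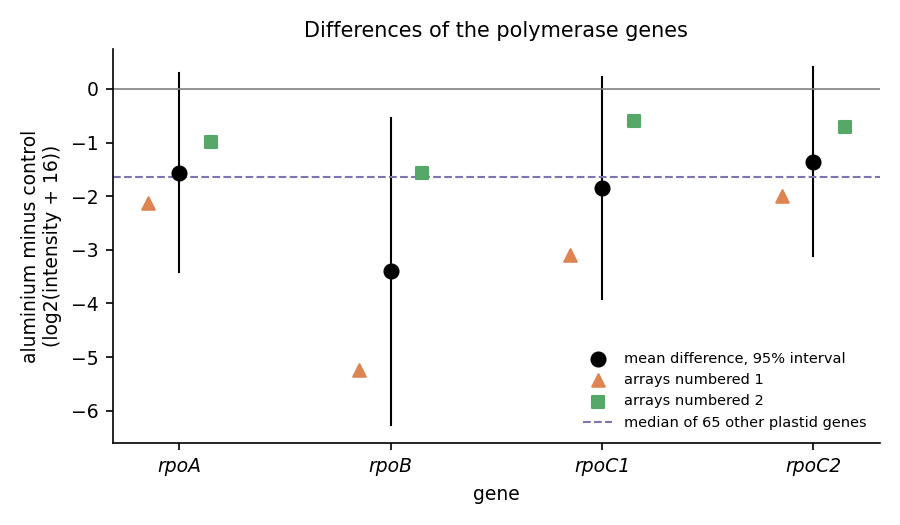
Aluminium minus control on the log2(intensity + 16) scale for each polymerase gene, with the limma estimate and its 95% interval (black), the arrays numbered 1 (orange) and the arrays numbered 2 (green). The dashed line is the median of the 65 other plastid genes, −1.65, which lies inside all 4 intervals.

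The 3 genes of the rpoB operon were compared with each other. On each array, the log2 level of rpoB minus that of rpoC1 was −2.54 and −0.76 on the aluminium arrays and −0.40 and 0.21 on the controls. For rpoB minus rpoC2 the values were −3.13 and −0.32 with aluminium, and 0.11 and 0.54 in controls. Both contrasts were lower with aluminium without overlap, by 1.56 and 2.05 on the log2 scale, with rpoB the further apart between treatments in each. Neither passed (two-sided exact permutation p = 0.333, the smallest that 2 against 2 arrays can give, and 0.80 adjusted over the 6 pairs of the 4 genes). Both rest on rpoB values below background, above all that of aluminium replicate 1. On that array rpoC1 and rpoC2 were below background too. Of the 6 pairs, these 2, which share rpoB, were without overlap. Among single plant probe sets, 16.2% were lower and 16.5% higher without overlap, but no such share was computed for differences between genes. The levels of rpoC1 and rpoC2 kept closer, with rpoC1 minus rpoC2 at −0.58 and 0.44 with aluminium and 0.51 and 0.33 in controls, and these groups overlapped. The gene rpoA, outside the operon, differed from rpoC2 by 2.35 and 1.78 with aluminium and by 2.47 and 2.06 in controls, again with overlap.

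In the gene order of the reference table, rpoC2, rpoC1 and rpoB stand in a row, with rps2 and atpI beyond rpoC2, and petN and psbM beyond rpoB. The ribosomal protein gene rps2 differed by −4.33, with 123 and 50.4 on the aluminium arrays against 4864 and 755 on the controls. Both aluminium readings of rps2 were below the background level, as were those of atpI, petN and rpl36. All of these genes but petN are also given by a bound made as for rpoB. It was at least 3.64-fold lower for rps2. Its neighbour atpI, for a subunit of the ATP synthase, differed by −1.53, or at least 2.06-fold. On the other side, petN of the cytochrome b6f complex differed by −1.65 with overlapping groups, and psbM of photosystem II by −2.29. Only 1 control array of petN was above background, so no firm bound can be given for it. Around rpoA, petD and petB of the cytochrome b6f complex differed by −1.34 and −1.61, and the groups of petD overlapped. The ribosomal protein gene rpl36 differed by −3.23, with 90.6 and 419 against 4780 and 838, or at least 3.79-fold. All of these neighbours had lower means with aluminium, and none passed limma over all plant probe sets.

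**Figure D3:**
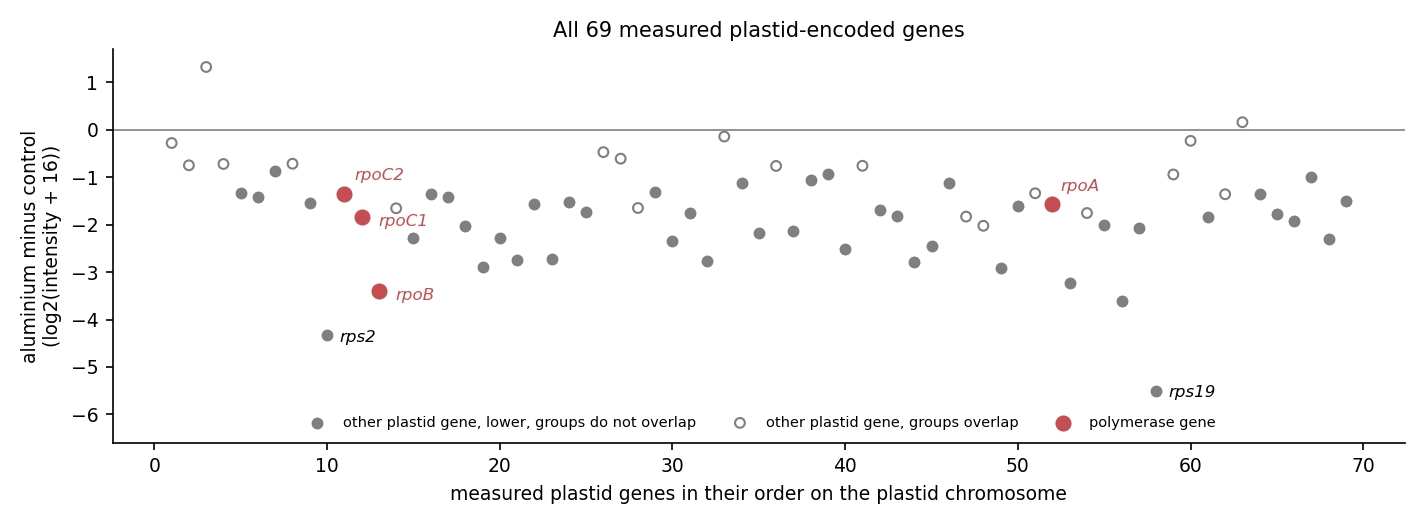
Aluminium minus control (log2 scale) for the 69 measured plastid genes in their order on the plastid chromosome. Filled grey points are genes lower with aluminium whose groups do not overlap, open points are genes whose groups overlap, and red points are the polymerase genes, of which rpoA, rpoC1 and rpoC2 lie within the main band and rpoB near its lower edge.

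Among the other 65 plastid-encoded genes, 63 had a lower mean with aluminium, as did 49.6% of all plant probe sets. Of the 65, 45 were lower without overlap, against 16.2% of all plant probe sets, and 42 of these at least 2-fold lower, against 9.93%. From the lowest difference upward, rpoB was in place 4 of 69, behind rps19, rps2 and rps3, although readings under the background level have no firm order. The places of rpoC1, rpoA and rpoC2 were 25, 37 and 44. The other plastid genes also separated the controls from each other. Their median log2 level was 10.11 and 9.92 on aluminium replicates 1 and 2, but 12.44 and 10.72 on control replicates 1 and 2. In 58 of the 65, control replicate 1 was the brightest array, and in 46 the controls lay further apart than the replicate 2 arrays of the treatments.

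The polymerase genes were then set against that plastid median on each array. The log2 level of rpoA minus the median was 0.89 and 0.95 with aluminium and 0.68 and 1.14 in controls, a difference of 0.01. For rpoC2 it was −1.46 and −0.83 with aluminium against −1.79 and −0.92, a difference of 0.21. In rpoC1 the values were −2.04 and −0.39 against −1.29 and −0.59, a difference of −0.28. For rpoB they were −4.59 and −1.15 against −1.69 and −0.38, a difference of −1.83 that came mostly from aluminium replicate 1. The groups overlapped in all 4 genes. By two-sided exact permutation, p was 1 for rpoA and rpoC1 and 0.667 for rpoB and rpoC2, where 0.333 is the smallest possible. No difference from the other plastid genes was thus larger than the spread between arrays.

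**Figure D4:**
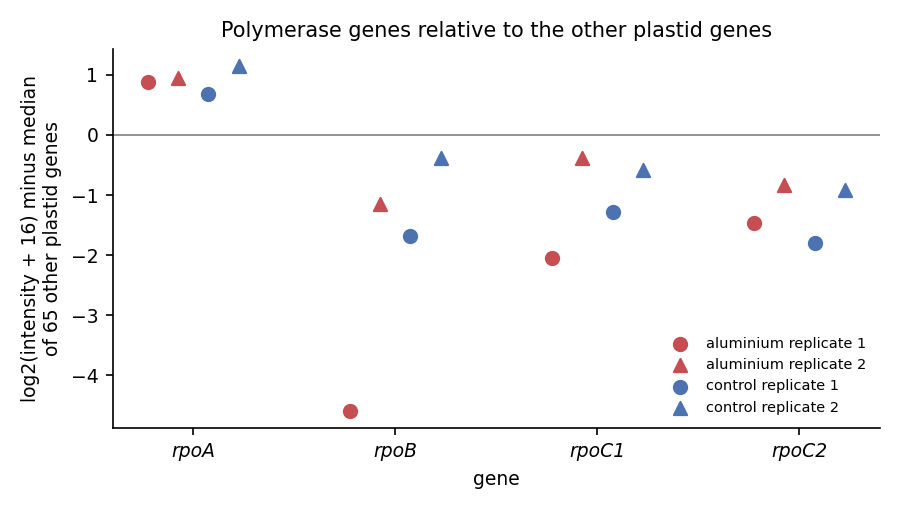
Log2(intensity + 16) of each polymerase gene minus the median of the 65 other plastid genes on the same array, for aluminium (red) and control (blue) arrays numbered 1 (circles) and 2 (triangles). Within each gene the red and blue points overlap, and the lowest point is rpoB on aluminium replicate 1 at −4.59; heights are not comparable between genes.

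Likeness of pattern was measured as the mean absolute difference between genes in the deviation from their own mean over the 4 arrays, in log2 units, where 0 is an identical pattern. The plastid genes most like rpoA were rps15 (0.16), rps18 (0.17) and psbD (0.19). For rpoC2 they were psbD (0.13), rps15 (0.16) and rbcL (0.18). The gene rpoC1 was most like psbZ (0.11), psaB (0.24) and psbM (0.27), and rpoB most like psaA (0.33), rps3 (0.40) and rps14 (0.54). The median over all other plastid genes was 0.59 for rpoA, 0.58 for rpoC2, 0.70 for rpoC1 and 1.34 for rpoB. None of the 4 had another polymerase gene among its nearest 3. Of 68 other plastid genes, the nearest polymerase gene ranked 9 for rpoA, 11 for rpoB, 8 for rpoC1 and 7 for rpoC2. These ranks were not tested. The patterns of rpoB, rpoC1 and rpoC2 include readings below background. The closest pair of polymerase genes was rpoA and rpoC2 (0.25), which do not share an operon, and the furthest was rpoA and rpoB (1.30).

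Plastid genes can be grouped by the polymerase that is known to transcribe them. The photosystem genes and rbcL, main targets of the plastid-encoded polymerase, had a median difference of −1.41 over 21 of 21 measured genes, of which 20 had a lower mean with aluminium and 14 were lower without overlap. Over all plant probe sets, these shares were 49.6% and 16.2%, which also stand behind the counts of the next lists. Their values ran from −2.92 for psbH, below background on both aluminium arrays and at least 3.21-fold lower, to 0.16 for psaC. The list of genes with promoters for the nucleus-encoded polymerase had 2 of 4 members measured. These were accD, for a subunit of the acetyl-CoA carboxylase of fatty acid synthesis, at −2.35 and clpP, for a protease subunit, at −2.45, both without overlap. Among ribosomal protein genes, the median was −2.81 over 8 of 12 small subunit genes, from −5.51 for rps19 to 1.33 for rps16, with 7 lower without overlap. Both aluminium readings of rps19 were below background, which makes it at least 6.52-fold lower, and rps16 was below background on all 4 arrays, so its value is not a measured rise. With such genes at their bound, or left out where there is none, the small subunit median was −2.70. The median was −2.00 over 7 of 9 large subunit genes, or −1.53 with bounds, from −3.23 for rpl36 to −0.23 for rpl32, with 5 lower without overlap. No gene of these lists passed limma over all plant probe sets, and differences between the lists were not tested.

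Of the nuclear partners of the enzyme, 1 of 22 listed genes was measured. None of the 6 sigma factor genes and none of the 13 genes for polymerase-associated proteins was paired with a probe set of its own in the table used here, and they were not analysed here. Of 3 phage-type polymerase genes, the one measured was AT5G15700, for the enzyme found in both mitochondria and chloroplasts. Its readings were 109 and 93.2 on the aluminium arrays and 154 and 118 on the controls, all below the background level of its array. The difference of −0.37 had an interval from −2.02 to 1.28 and did not pass limma (adjusted p = 0.988).

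Nuclear markers of green tissue, as far as measured, also read lower with aluminium. Each was lower without overlap, as were 16.2% of all plant probe sets. None passed limma over all plant probe sets (adjusted p = 0.966 for each). The summed intensity of RCA, LHCB4.1 and PRK, the 3 measured of 5 shoot markers, was 4997 and 8980 with aluminium and 27064 and 18588 in controls, with no overlap between groups and no marker at 0. The sum of the 2 measured of 5 root markers, PYK10 and EXPA7, was 573 and 1074 with aluminium and 1429 and 995 in controls, with overlap. RCA and PRK were above background on all 4 arrays and LHCB4.1 on 3. PYK10 was above background on 3 arrays, all but aluminium replicate 1, and EXPA7 on none, so no measured root marker stood above background on aluminium replicate 1, although the label gives whole plants. In RNA of whole seedlings, fewer chloroplast-bearing cells and less plastid RNA per cell cannot be told apart, and the part of tissue make-up in the polymerase gene values was not tested.

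**Figure D5:**
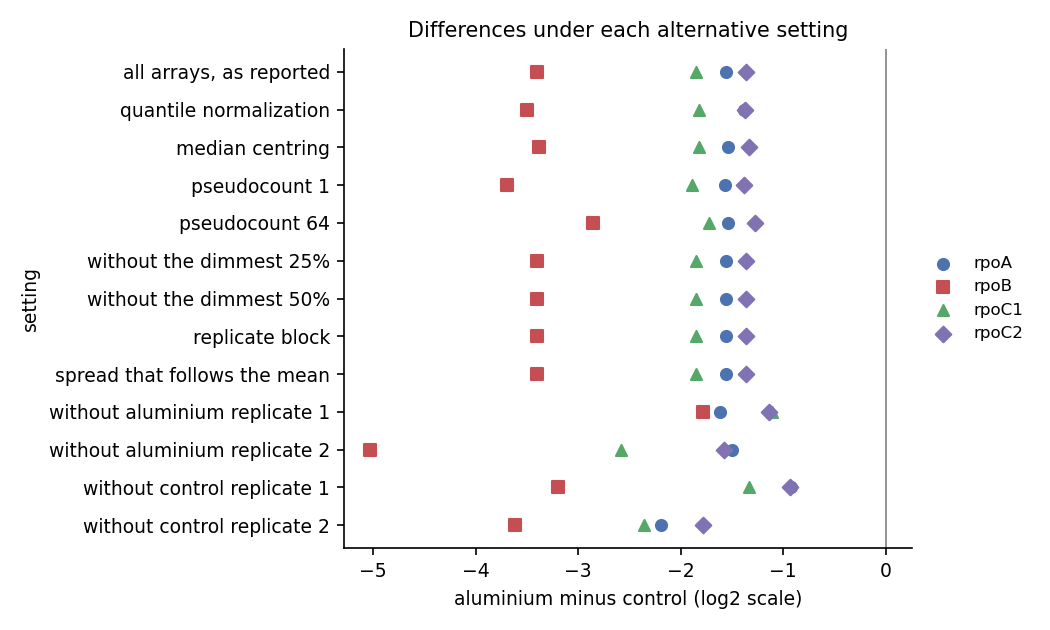
Aluminium minus control (log2 scale) of each polymerase gene with all arrays and under each of 12 alternative settings. All points lie below 0, which only quantile normalization and median centring could have changed. Those that leave out 1 array spread the most, with rpoB between −5.03 and −1.78.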

How the data were processed

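Intensities from Affymetrix ATH1 arrays were used as deposited, with 1 linear value per probe set and array. Per the submitters' processing notes, GCOS and RMA were used, for steps that are not stated. In the deposited intensities, each array had a mean of 500.0 once the lowest and highest 2% were dropped, but no 2 arrays had the same distribution, so scaling was global. The number of arrays limits the precision. After 64 control probe sets were set aside, log2(intensity + 16) of 22746 plant probe sets was fitted with limma 3.58.1 in R 4.3.3 (two-sided, group as the only term), with Benjamini-Hochberg adjustment over all of them and a threshold of 0.05. The added 16 understates fold changes of dim probe sets. Of 22746 plant probe sets, 13513 had 1 gene, 503 several and 8730 none, and 13436 were matched to RefSeq's TAIR10.1 gene table, used for names and gene order only. Exact permutation tests used SciPy 1.17.1. The limma step was tested on simulated data.

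The members and gene lists were chosen with earlier results of these data known. Genes were named as members, measured nuclear partners, the 2 coding genes on each side and the 3 most alike plastid genes. Lists were described by counts, median and extremes. Nothing says whether the pooled seedlings were grown apart, so p-values measure the spread between these samples, which may be technical. Alternatives were quantile normalization, median centring, pseudocounts of 1 and 64, removal of the dimmest 25% or 50%, a replicate block, a spread that follows the mean, and each array left out. Leaving out each array for the medians of polymerase and plastid genes was added after seeing the data.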

Additional observations from a re-analysis of the deposited data

Results flagged for a closer look

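A pair of control readings outside the gene comparison stood out on aluminium replicate 1, above both controls. The 25S ribosomal RNA probe set had 2.58 times the signal of the brighter control, replicate 1. The 18 hybridization control probe sets, for transcripts added to the hybridization mix, were 2.57 times as bright by geometric mean. That mean was 131442 and 11226 on aluminium replicates 1 and 2, and 51057 and 6339 on control replicates 1 and 2. Both measures were thus higher on both arrays numbered 1 than on both numbered 2, controls included. Aluminium replicate 1 is also the array with the lowest reading of rpoB, rpoC1 and rpoC2, but not of rpoA. Without it, rpoA differed by −1.62, rpoB by −1.78, rpoC1 by −1.11 and rpoC2 by −1.14 on the log2 scale.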

How the results depend on the processing

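All 4 polymerase genes kept a lower mean with aluminium under each of the 12 alternatives. Only quantile normalization and median centring could have changed that direction. Both aluminium values lay below both controls in each gene, so neither 1 array left out nor another pseudocount can reverse it. Removal of dim probe sets, the replicate block and the spread that follows the mean leave the differences unchanged. With all arrays kept, none passed limma (adjusted p from 0.899 to 0.969 over genes and alternatives). With 1 array left out, the differences ranged from −2.19 to −0.93 for rpoA, −5.03 to −1.78 for rpoB, −2.58 to −1.11 for rpoC1 and −1.78 to −0.94 for rpoC2. Under the other 8 alternatives they stayed between −1.57 and −1.39, −3.70 and −2.86, −1.89 and −1.73, and −1.39 and −1.28 in the same order. With 1 array left out, the median of the other 65 plastid genes ranged from −2.35 to −0.88 and was nearest 0 without control replicate 1. These fits take the lone array of a treatment to vary like those of the other. Over all plant probe sets, limma called 0 under every alternative, with 1084 at an unadjusted p under 0.05 in the fit with all arrays and all probe sets. Probe sets without overlap and at least 2-fold apart numbered 4455, 1967 without the dimmest 50%, where fewer were counted, and 6638 to 9816 with 1 array left out, where fewer values can overlap. The same replicate number is shared by 1 aluminium and 1 control array, but nothing states what it marks. The 25S and hybridization control readings were higher on both arrays numbered 1 than on both numbered 2. Deviations from the group means of arrays with the same number had a correlation of 0.09 across probe sets and 0.16 in the brightest 25%. The replicate block called 0 probe sets (smallest adjusted p = 0.899 in limma). With 1 array of each treatment per number, the block cannot change the differences, so their being unchanged does not bear on the pairing. Depth here is signal over background, which limits rpoB in particular, below background on both aluminium arrays.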
